A study of Mus musculus with 2 samples.

Results

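The genes described here encode enzymes and binding proteins that write, remove or read marks on DNA and histones in the mouse, or that move nucleosomes. They were taken from a list of 52 gene symbols, and a member was any gene on that list, whatever its measured value. All 52 had at least 1 tag in either library, out of 14450 genes with an unambiguous sense tag. For description they were split into 5 families by role: 8 genes of DNA methylation, 11 of Polycomb, 16 of histone methylation, 11 of histone acetylation and 6 of nucleosome remodelling.

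DNA methyltransferases add a methyl group to cytosine, TET enzymes oxidise it, and methyl-binding proteins bring repressor complexes to DNA. Polycomb group proteins form one complex that methylates histone H3 on lysine 27 and another that ubiquitinates histone H2A, and both hold developmental genes silent. In the male germ line these systems set imprints, silence transposons and are reshaped as spermatogonia enter meiosis.

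The study asked how gene expression differs between cells like type B spermatogonia and cells like spermatocytes. Digital gene expression (DGE) tag profiling was applied to 2 mouse cell lines, with 1 library per line. GC-1spg was made from type B spermatogonia of a 10-day-old mouse by transformation with pSV3-neo, and its labels place it between that stage and the primary spermatocyte. GC-2spd (ts) was made from spermatocytes of a 6-week-old mouse with SV40 large T antigen. Both lines were kept in DMEM with foetal bovine serum and received no other treatment. Each line is an immortalised culture, the study's methods describe cells that can no longer differentiate and are halted before meiosis, and no second culture was measured, so no difference below has a replicate check.

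The tables held 5072149 clean tags for GC-1spg and 4726808 for GC-2spd (ts), where a clean tag is a filtered 21-base read that starts at a CATG site. Paired values below give GC-1spg first and GC-2spd (ts) second. Levels are in TPM, tags per 1000000 clean tags, on which scale 1 copy was worth 0.197 and 0.212. Since a DGE library holds about 1 tag per transcript, TPM was not divided by length. The smallest copy number listed was 2, because single copies had been removed. The labelled germ cell identity was checked with 20 germ cell markers, of which 19 had no listed tag in either library, among them Ddx4, Dazl, Sycp3 and Stra8, while Spo11 had 2 and 0 tags. Of 10 fibroblast markers 8 were listed, and their summed level was 3770 and 2628 TPM, with Thy1 and Lum at 0. Of these 8, 4 were higher and 4 lower in GC-2spd (ts), with log2 ratios from −8.37 to 1.66. Of 7 Sertoli cell markers 4 were listed, with 62 and 60 tags in all, and of 6 Leydig cell markers 2 were listed, with 4 and 5 tags. What part cell identity has in the differences below was not tested, and in bulk RNA fewer cells of a type and less RNA per cell cannot be told apart. An unlisted gene may still have had single copies, so for a gene at 0 in 1 library the one-sided 95% limit allows 1 unlisted copy of each tag seen in the other, which makes 4.74 counts for a gene with 1 such tag.

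A gene's count was the sum of the tags that matched it alone, in the sense direction. A gene was called when its FDR in an Audic-Claverie test was at most 0.001 and its levels differed at least 2-fold. By this rule 10 of the 52 members were called, or 19.2%, beside 19.5% of all 14450 genes. In GC-2spd (ts), 6 were higher, beside 11.7% of all genes, and 4 were lower, beside 7.84% of all genes. The share of called members was thus close to that of all genes. Among genes with at least 20 tags over both libraries, 10 of 47 members were called, or 21.3%, beside 26.0% of such genes, of which 15.8% were higher and 10.2% lower. By size alone, without the test, 14 members differed at least 2-fold, or 26.9%, beside 45.7% of all genes, many of which had few tags. A gene at 0 in 1 library was set to 0.01 TPM there and so passed whatever its count, as Tet1 did among the 14. These 2 shares therefore depend on how many genes were at 0.

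The 6 members called higher were Mbd3, Bmi1, Rnf2, Cbx7, Dot1l and Sirt1. The 4 called lower were Dnmt3a, Cbx8, Kdm5b and Hells. Scaling the libraries by TMM, which assumes that most genes do not change, moved every log2 ratio by −0.17, and then 3 members were higher (Mbd3, Cbx7 and Sirt1) and the same 4 lower. The calls of Bmi1, Rnf2 and Dot1l thus depended on the scaling, since their ratios lay just above the 2-fold line. With an assumed biological coefficient of variation of 0.2 between cultures, an edgeR exact test called 1 member higher (Sirt1) and 2 lower (Dnmt3a and Kdm5b), and with 0.4 it called 0.

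The most abundant tag of each called member is printed here because it is the largest single part of that member's summed count. The CATG site is in capitals, positions are those of GRCm38, and coordinates give the 21 bases in the genome. A capital after the CATG marks the base at which a tag departs from the reference.
Dnmt3a: CATGgcattttcttgttgaat
Mbd3: CATGtggaggagcttgcccga
Bmi1: CATGgtgttacctaagacaaa
Rnf2: CATGttcgctgaatataactc
Cbx7: CATGagccagcagtggcAacc
Cbx8: CATGggggcgcaagggggaag
Dot1l: CATGgtgcatagtggccccag
Kdm5b: CATGtaattcaggactccaat
Sirt1: CATGatgtgtttgtgctatag
Hells: CATGggatttggacttcagtt

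These tags lay on 7 chromosomes and, in 8 of 10 genes, in the 3′ UTR. Dnmt3a was read at chr12:3914353-3914373 on the plus strand, in exon 23, and Hells at chr19:38968140-38968160 on the plus strand, in exon 22. Bmi1 was read at chr2:18686402-18686422 on the plus strand, in exon 10, and Dot1l at chr10:80795083-80795103 on the plus strand, in exon 28. Kdm5b lay at chr1:134631396-134631416 on the plus strand, in exon 27, and Rnf2 at chr1:151469603-151469623 on the minus strand, in exon 8. Sirt1 lay at chr10:63319235-63319255 on the minus strand, in exon 14, and Cbx7 at chr15:79916341-79916361 on the minus strand, in exon 7. The exceptions sat in coding sequence, Mbd3 at chr10:80393190-80393210 in exon 6 and Cbx8 at chr11:119038858-119038878 in exon 5, both on the minus strand. The Cbx7 tag differed from the reference at G18A, counted from the C of CATG, and the reference form of that tag had 0 and 4 copies beside 4 and 37 of the printed form.

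**Figure D1:**
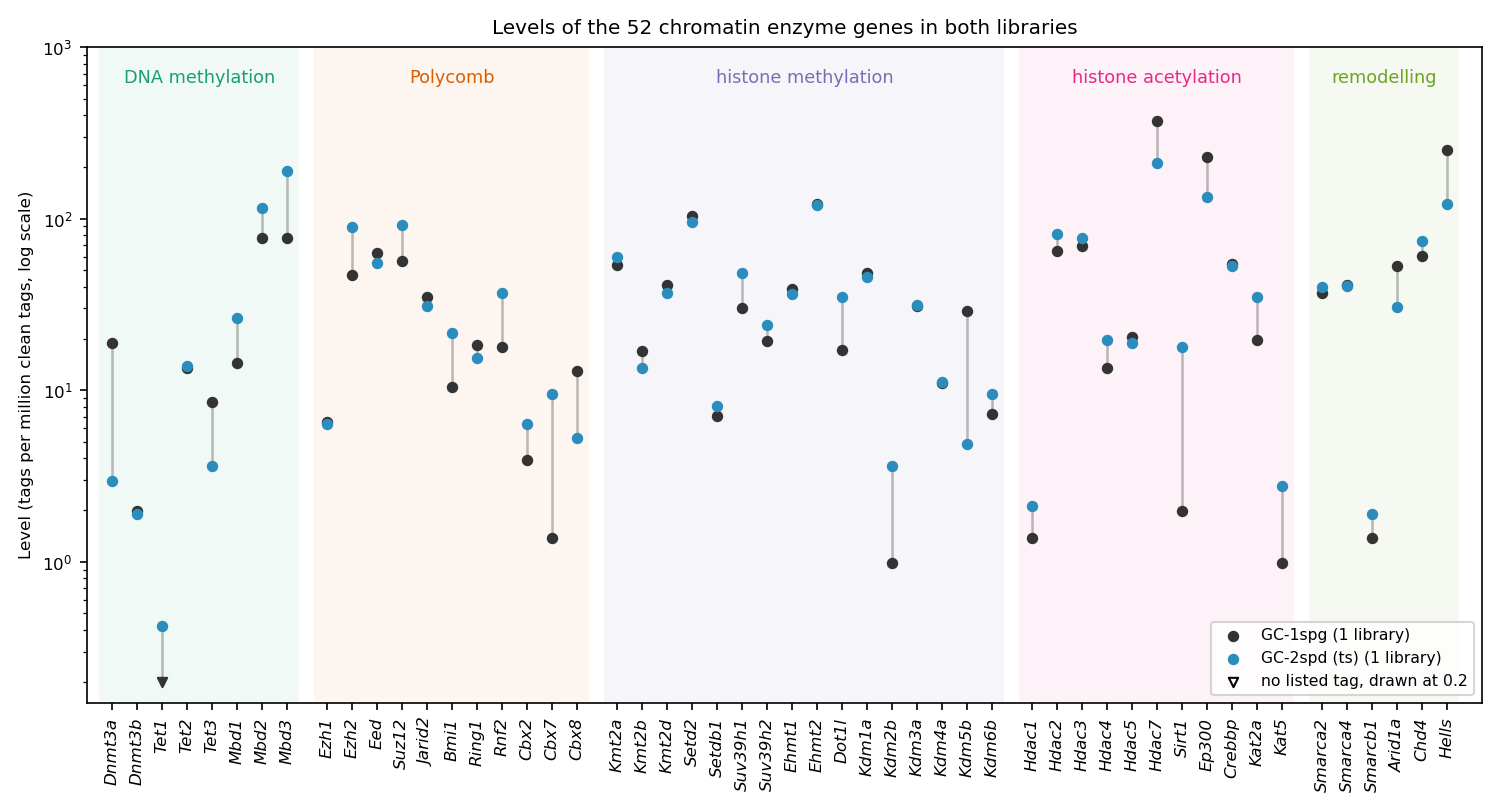
Level of each member in TPM on a log axis, with GC-1spg in black and GC-2spd (ts) in blue, 1 library each, and genes grouped by family. Levels spanned from under 1 TPM for Tet1 to 370 TPM for Hdac7 in GC-1spg, and the longest lines join the points of Sirt1, Cbx7, Dnmt3a and Kdm5b.

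In the DNA methylation family 1 gene was called higher and 1 lower, or 25% of 8, beside 19.5% of all genes. Dnmt3a, which lays down new DNA methylation, gave 95 and 14 tags, or 18.7 and 2.96 TPM. It was 6.32-fold lower in GC-2spd (ts), with a log2 ratio of −2.66 and an exact 95% interval of −3.59 to −1.84. Intervals here and below cover counting error only, and PCR copies of one molecule were not separable. Dnmt3b, the other de novo methyltransferase, gave 10 and 9 tags, and its ratio of −0.05 (−1.53 to 1.40) had an interval that reached past 2-fold on either side. Mbd3, a core subunit of the NuRD deacetylase complex, had 390 and 893 tags, or 76.9 and 188.9 TPM, and was 2.46-fold higher in GC-2spd (ts) (log2 ratio 1.30, 1.12 to 1.47).

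Mbd3 was the called member with the most tags among those higher, and its relatives also had intervals above 0 without a call. Mbd2, which binds methylated DNA, had 392 and 544 tags and a ratio of 0.57 (0.38 to 0.77). For Mbd1, a second methyl-DNA binder, 73 and 125 tags gave 0.88 (0.45 to 1.32), and with the last CATG site alone its 55 and 109 tags gave 1.09 and a call. The 3 TET dioxygenases showed no call. Tet2 had 68 and 65 tags and a ratio of 0.04 (−0.48 to 0.55), whose sign turned under TMM scaling. Tet3 had 43 and 17 tags and a ratio of −1.24 (−2.14 to −0.40), and missed the FDR limit at 0.0051. Tet1 had 0 and 2 tags, too few to compare.

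Polycomb held the largest share of called members of any family, 4 of 11 or 36.4%, beside 19.5% of all genes and 26.0% of those with at least 20 tags, and its median log2 ratio was 0.69 beside 0.16 for the 11373 genes listed in both libraries. Under TMM scaling that median was 0.51, and the calls fell to 2 of 11, or 18.2%, below the 2 of 8 of DNA methylation. The first Polycomb complex, PRC2, had no called member. Ezh2, its main methyltransferase, had 237 and 420 tags, or 46.7 and 88.9 TPM, and its ratio was 0.93 (0.69 to 1.16), just under the 2-fold limit. Suz12, a scaffold subunit that PRC2 needs for activity, had 288 and 433 tags and a ratio of 0.69 (0.47 to 0.91). Both intervals lay above 0. Eed, which reads methylated lysine 27, had 321 and 259 tags (−0.21, −0.45 to 0.03), and Ezh1, the second methyltransferase of PRC2, had 33 and 30 (−0.04, −0.80 to 0.72).

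Jarid2, a PRC2 cofactor, could not be measured with confidence. It was credited with 178 and 146 tags, of which 162 and 137 came from 1 tag that departs from the reference at G18A. That tag is shown because it also matches another gene exactly once a poly(A) tail is added to the transcript ends.
Jarid2: CATGttttaacaaaaaaAaaa
Its place on Jarid2 is chr13:44920965-44920985 on the plus strand, in the 3′ UTR of exon 18, and the reference form of the tag had 2 and 0 copies. With tails added, the tag went to Fyn, a tyrosine kinase gene, and Jarid2 kept 16 and 6 tags. With exact matches alone Jarid2 had 12 and 6 tags.

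The second Polycomb complex, PRC1, held all 4 called Polycomb genes, and they went in both directions. Rnf2, its ubiquitin ligase, had 91 and 174 tags, or 17.9 and 36.8 TPM, and was 2.05-fold higher in GC-2spd (ts) (log2 ratio 1.04, 0.66 to 1.42). Bmi1, which partners Rnf2, had 53 and 102 tags, or 10.4 and 21.6 TPM, and was 2.07-fold higher (1.05, 0.55 to 1.55). Neither interval excluded a change below 2-fold. Bmi1 shared a further 59 and 100 copies with Gm5946, which were left out of its count. In GC-1spg these outnumbered its own tags. No ratio was made with them counted, so the call of Bmi1 holds for its unambiguous tags only.

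The chromobox proteins recruit PRC1 to methylated lysine 27, and 2 of them differed in opposite directions. Cbx7 had 7 and 45 tags, or 1.38 and 9.52 TPM, and was 6.90-fold higher (log2 ratio 2.79, 1.63 to 4.18). Cbx8 had 66 and 25 tags, or 13.0 and 5.29 TPM, and was 2.46-fold lower (−1.30, −2.02 to −0.61). The call of Cbx7 rested on tags with 1 mismatch: exact matches alone left 3 and 8 tags, a ratio of 1.52 (−0.54 to 4.07) and no call. The call of Cbx8 rested on the third CATG site from the 3′ end, and the site nearest the end gave 4 and 6 tags, too few for a direction. Cbx2, a chromobox gene of the same group, had 20 and 30 tags (0.69, −0.18 to 1.58), and Ring1, the alternative ligase, had 93 and 73 (−0.25, −0.71 to 0.21).

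**Figure D2:**
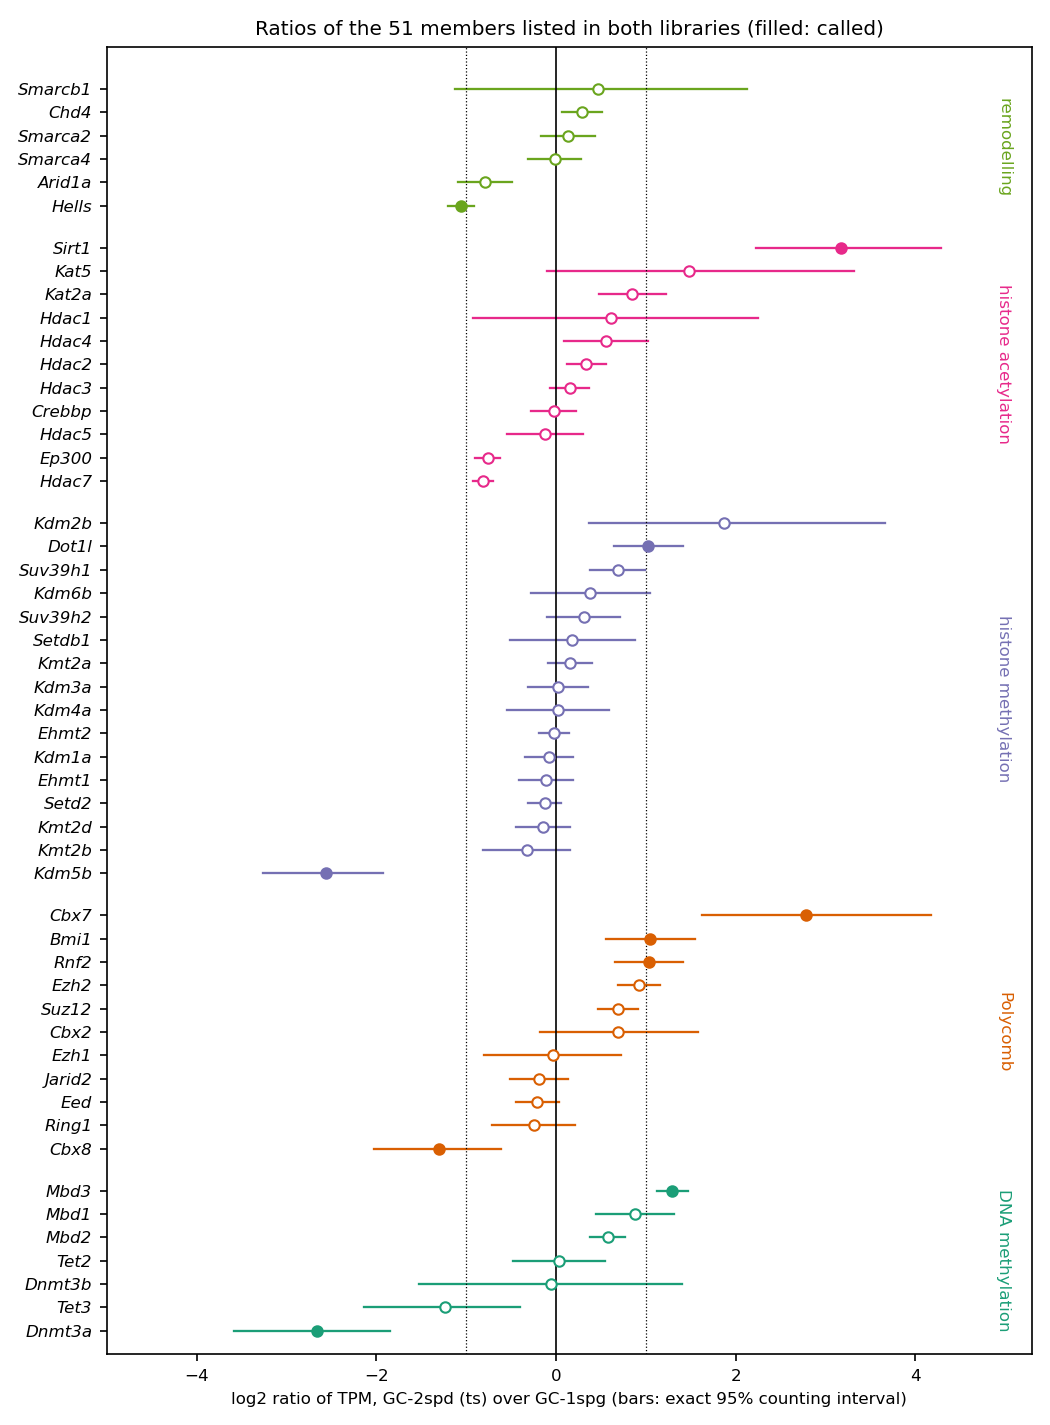
Log2 ratio of TPM, GC-2spd (ts) over GC-1spg, for the 51 members listed in both libraries, with exact 95% counting intervals as bars, filled points for called genes and dotted lines at 2-fold. Of the intervals, 16 lie above 0 and 8 below, a count that was not made over all genes. The median log2 ratio of all genes listed in both libraries was itself above 0, at 0.16. Among called members the bars of Bmi1, Rnf2, Dot1l, Cbx8 and Hells cross a dotted line.

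In histone methylation 14 of 16 genes were not called, and the median log2 ratio was 0.02, or −0.15 under TMM scaling. The 2 called genes made 12.5%, beside 19.5% of all genes and 26.0% of those with at least 20 tags. Dot1l, the only known methyltransferase of H3 lysine 79, had 87 and 165 tags, or 17.2 and 34.9 TPM, and was 2.04-fold higher in GC-2spd (ts) (log2 ratio 1.03, 0.64 to 1.42). Kdm5b, which removes methyl groups from H3 lysine 4, had 146 and 23 tags, or 28.8 and 4.87 TPM, and was 5.92-fold lower (−2.56, −3.27 to −1.92). Kdm5b and Dnmt3a were the members with the lowest ratios, and both kept the call at every setting tried up to an assumed coefficient of variation of 0.2.

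Around these, the lysine 4 methyltransferases lay close to equality. Kmt2a had 271 and 281 tags with a ratio of 0.15 (−0.09 to 0.40), Kmt2b had 86 and 64 with −0.32 (−0.82 to 0.16), and Kmt2d had 207 and 175 with −0.14 (−0.44 to 0.16). None of the 3 intervals excluded 0, and the ratio of Kmt2a changed sign under TMM scaling. Setd2, which methylates lysine 36 in transcribed genes, had 526 and 450 tags (−0.12, −0.31 to 0.06).

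The lysine 9 methyltransferases held 0 calls by the Audic-Claverie rule. Ehmt2 had 620 and 570 tags, or 122.2 and 120.6 TPM, the highest level in the family, with a ratio of −0.02 (−0.19 to 0.15). Its partner Ehmt1 had 198 and 171 tags (−0.11, −0.41 to 0.19). Suv39h1 had 152 and 228 tags and a ratio of 0.69 (0.38 to 0.99), wholly above 0 and under 2-fold, while Suv39h2 had 98 and 113 (0.31, −0.10 to 0.71). Setdb1, which silences transposons, had only 36 and 38 tags of its own. A further 283 and 440 copies matched it and also the antisense strand of Cers2. Counting these as Setdb1 gave 319 and 478 tags and a ratio of 0.69 (0.48 to 0.89), so its level depended on how overlapping genes were resolved.

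Among the demethylases other than Kdm5b, no gene was called. Kdm1a, which acts on lysine 4 in repressor complexes, had 246 and 217 tags (−0.08, −0.35 to 0.19). The lysine 9 demethylases Kdm3a, with 156 and 148 tags, and Kdm4a, with 56 and 53, had ratios of 0.03 and 0.02, whose signs turned under TMM scaling. Kdm6b, which erases the Polycomb mark, had 37 and 45 tags (0.38, −0.28 to 1.05). Kdm2b, which targets a form of PRC1 to CpG islands, had 5 and 17 tags and a wide interval (1.87, 0.37 to 3.66), and a further 28 and 48 copies were shared, nearly all with the antisense strand of Rnf34. With the Rnf34 copies counted as sense it had 33 and 63 tags and a ratio of 1.03 (0.40 to 1.69), again without a call.

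In the acetylation family the single call, 1 of 11 genes or 9.09% beside 19.5% of all genes, was Sirt1. This NAD-dependent deacetylase gave 10 and 84 tags, or 1.97 and 17.8 TPM. It was 9.01-fold higher in GC-2spd (ts), with a log2 ratio of 3.17 (2.22 to 4.28), the largest ratio of any member listed in both libraries. Its main tag, at the last CATG site of the transcript, supplied 8 and 73 of those copies.

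The class I deacetylases were measured unevenly. Hdac2 had 329 and 387 tags (0.34, 0.12 to 0.55), and Hdac3, the catalytic subunit of the NCoR complex, had 350 and 363 (0.15, −0.06 to 0.37, with the sign turned under TMM scaling). Hdac1 had only 7 and 10 unambiguous tags, because 472 and 705 copies also matched other genes. Most of these matched pseudogene transcripts such as Gm10093. With pseudogene transcripts left out, an alternative chosen after seeing the data, Hdac1 had 444 and 692 tags, or 87.5 and 146.4 TPM, with a ratio of 0.74 (0.57 to 0.92) and no call. The unambiguous count of Hdac1 is therefore no measure of its level.

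Class IIa deacetylases shuttle between nucleus and cytoplasm and bind MEF2 factors. Hdac7 was the most abundant member in both lines, with 1878 and 1000 tags, or 370.3 and 211.6 TPM. Its ratio was −0.81 (−0.92 to −0.70), wholly below 0 but short of 2-fold. With the longest transcript of each gene alone it kept only 50 and 2 tags and was called lower (−4.54), a setting that also left Hdac2 with 0 and 4 tags. Hdac4 had 68 and 93 tags (0.55, 0.09 to 1.03), and Hdac5 had 104 and 89 (−0.12, −0.55 to 0.30). The 3 genes thus had no common direction.

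Of the acetyltransferases, none was called. Ep300, a coactivator that acetylates enhancer histones, had 1153 and 635 tags, or 227.3 and 134.3 TPM, and its ratio was −0.76 (−0.90 to −0.62). Its close relative Crebbp had 274 and 251 tags and a ratio of −0.02 (−0.28 to 0.23). Kat2a, the catalytic subunit of SAGA, had 99 and 166 tags (0.85, 0.48 to 1.22). Kat5, the catalytic subunit of the TIP60 complex, had 5 and 13 tags (1.48, −0.10 to 3.32), with 43 and 43 more shared with the antisense strand of Rnaseh2c. Counted together these made 48 and 56 tags and a ratio of 0.32 (−0.26 to 0.91).

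Among the 6 remodellers Hells alone was called, or 16.7%, beside 19.5% of all genes. Hells, an ATPase needed for DNA methylation of repeats, had 1281 and 575 tags, or 252.6 and 121.6 TPM, and was 2.08-fold lower in GC-2spd (ts) (log2 ratio −1.05, −1.20 to −0.91). Most of its copies came from the 10th CATG site from the 3′ end, and the site nearest the end held only 20 and 17 tags, with a ratio of −0.13 (−1.16 to 0.87). The call also lapsed when antisense tags were added, at a ratio of −0.94.

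The SWI/SNF remodelling complex slides nucleosomes with 1 of 2 alternative ATPases, Smarca2 or Smarca4. Smarca2 had 186 and 190 tags (0.13, −0.17 to 0.43, sign turned under TMM scaling), and Smarca4 had 207 and 191 (−0.01, −0.31 to 0.28). Both intervals included 0. Arid1a, its DNA-binding subunit, had 269 and 145 tags and a ratio of −0.79 (−1.09 to −0.49). Chd4, the ATPase of NuRD, had 309 and 352 (0.29, 0.07 to 0.52).

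Smarcb1, a core SWI/SNF subunit, had only 7 and 9 tags, although its antisense strand had 72 and 64. A tag that runs into the poly(A) tail fits its transcript end, and it is printed here, with the transcript part in capitals, because it held most copies that could be credited to the gene.
Smarcb1: CATGTTCAATTTCaaaaaaaa
The first 13 bases of this tag close the Smarcb1 transcript and 8 more are A, and it had 215 and 221 copies. With tails added to transcript ends Smarcb1 had 224 and 230 tags, or 44.2 and 48.7 TPM, and a ratio of 0.14 (−0.13 to 0.41). This alternative and the choice to show the tag were made after seeing the data.

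**Figure D3:**
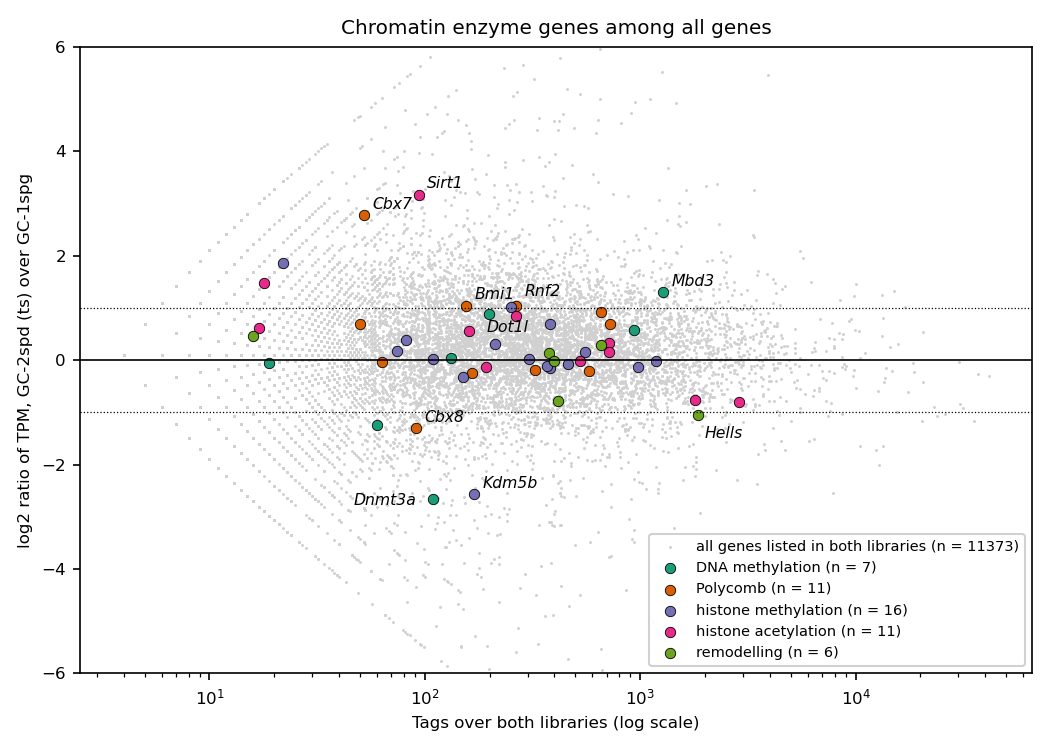
Log2 ratio of TPM, GC-2spd (ts) over GC-1spg, against the tags of a gene over both libraries on a log axis, for 11373 genes in grey (28 lie beyond the axis) and for the 51 members listed in both, coloured by family. The 10 called members are named, and most other members lie between the dotted 2-fold lines.

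Seen across all 5 families, 29 members had a ratio above 0 and 22 below, and their median was 0.13 (−0.04 under TMM scaling), beside 0.16 for all genes listed in both libraries. Summed over the list, the members held 11921 and 10717 tags, or 2350 and 2267 TPM. Totals by family were uneven. DNA methylation genes summed to 211.2 and 353.1 TPM, most of it Mbd2 and Mbd3, and Polycomb genes to 273.5 and 367.5 TPM. Acetylation genes went from 843.2 to 653.9 TPM and remodellers from 445.4 to 309.3 TPM, sums in which Hdac7, Ep300 and Hells weighed most. Histone methylation genes summed to 577.1 and 583.5 TPM. These sums were not rescaled and rest on unambiguous tags, so they depend on the matching. With pseudogene transcripts left out Hdac1 alone had 87.5 and 146.4 TPM. With sense matches preferred Setdb1 had 62.9 and 101.1 TPM. Poly(A) tails added to transcript ends put Smarcb1 at 44.2 and 48.7 TPM and Jarid2 at 3.15 and 1.27 TPM.

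Pairs of related genes were compared as shares, which do not depend on the scaling of a library. Of 12 pairs, 4 had shares whose exact 95% intervals did not overlap between the lines. Pairs of other genes were not compared in this way, so whether 4 of 12 is more than usual was not tested. Dnmt3a made up 90.5% (83.2 to 95.3) of the Dnmt3a and Dnmt3b tags in GC-1spg and 60.9% (38.5 to 80.3) in GC-2spd (ts). Ring1 made up 50.5% (43.1 to 58.0) of the Ring1 and Rnf2 tags and then 29.6% (23.9 to 35.7). The balance of the chromobox pair turned over, with Cbx7 at 9.59% (3.94 to 18.8) of its sum with Cbx8 in GC-1spg and 64.3% (51.9 to 75.4) in GC-2spd (ts). With exact matches alone those shares were 4.35% and 24.2%, so that Cbx7 no longer outnumbered Cbx8 in GC-2spd (ts), and with the last CATG site alone it held 4 of 8 tags in GC-1spg and then 87.8%. Ep300 held 80.8% (78.7 to 82.8) and 71.7% (68.6 to 74.6) of its sum with Crebbp, a smaller shift that the depth of these genes resolved.

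The other 8 pairs had overlapping intervals, and over the other ways of matching tags 3 to 5 pairs were apart. Ezh1 held 12.2% and 6.67% of its sum with Ezh2, and Tet2 held 61.3% and 79.3% of its sum with Tet3. The pairs of Ehmt1 with Ehmt2 (24.2% and 23.1%) and of Smarca2 with Smarca4 (47.3% and 49.9%) differed little between the lines. Kmt2a held 75.9% and 81.4% beside Kmt2b, Suv39h1 60.8% and 66.9% beside Suv39h2, and Hdac4 39.5% and 51.1% beside Hdac5. Hdac1 held 2.08% and 2.52% beside Hdac2 from its unambiguous tags, but 57.4% (53.9 to 61.0) and 64.1% (61.2 to 67.0) with pseudogene transcripts left out, where its intervals too were apart.

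**Figure D4:**
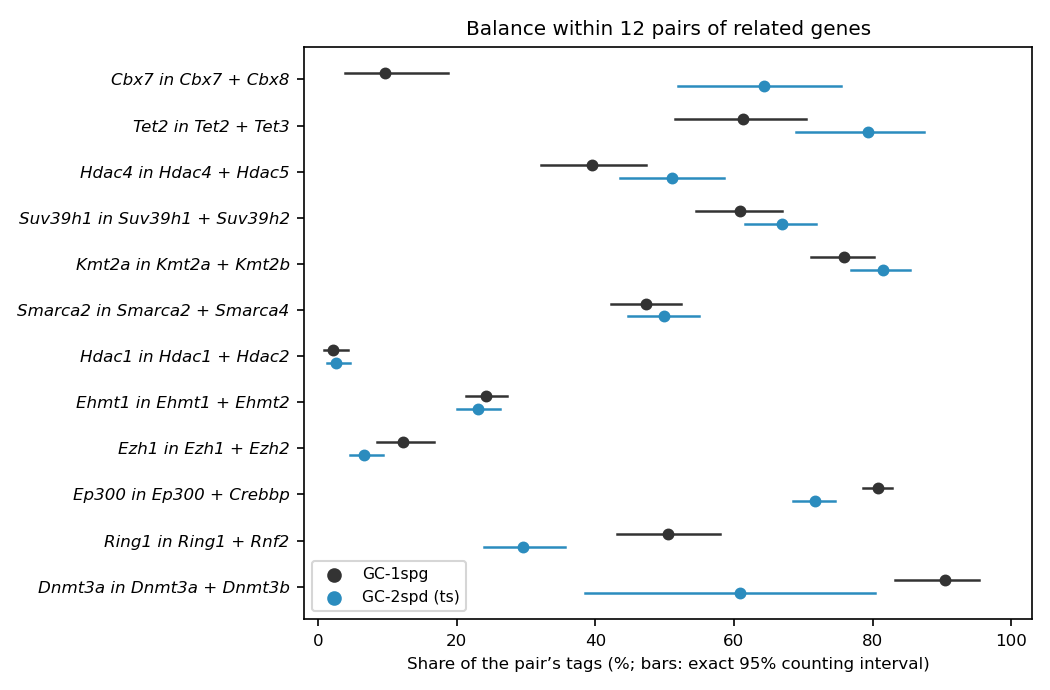
Share of the first gene in the summed tags of 12 pairs of related genes, in percent, with exact 95% counting intervals as bars, GC-1spg in black and GC-2spd (ts) in blue. The bars are apart for Cbx7 with Cbx8, Dnmt3a with Dnmt3b, Ring1 with Rnf2 and Ep300 with Crebbp.

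The tags also show which part of a transcript was read. In 42 of the 47 members with at least 20 tags the most abundant tag lay at the last CATG of some annotated transcript of the gene. That transcript could be a short one. The main tag of Kdm5b, counted among the 42, lay 3890 bases from the end of a transcript with other CATG sites nearer that end. In 40 of the 47 the most abundant tag lay in the 3′ UTR, in the other 7 in coding sequence. The 5 exceptions in site were Cbx8, Kmt2a, Setdb1, Crebbp and Hells. For Crebbp the 13th site from the end gave 143 and 105 copies, while the site nearest the end alone gave 39 and 76 tags in all, a ratio of 1.06 (0.49 to 1.66) and a call as higher, where the sum over all sites gave −0.02.

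In 44 of the 47 the most abundant tag was the same in both libraries, counting a tie of 2 Hdac4 tags in GC-1spg as the same. The exceptions were Dnmt3a, Mbd1 and Dot1l. Dnmt3a had 64 and 5 copies of the printed tag, which lay 91 bases from the transcript end, and 11 and 6 copies of a tag 1549 bases from an end. The printed tag thus carried most of the difference between the lines. Dot1l had 40 and 61 copies of its printed tag but 14 and 63 of a tag 1868 bases from an end.

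For 7 members the share of the main tag had intervals that did not overlap between the lines, or 14.9% of 47, beside 12.7% of the 9924 genes with at least 20 tags that were listed in both libraries, so the members were near the share of all genes. In Arid1a it was 79.6% (74.2 to 84.2) in GC-1spg and 55.9% (47.4 to 64.1) in GC-2spd (ts), and the share of a second tag 1328 bases from a transcript end was 9.67% (6.41 to 13.8) and 22.8% (16.2 to 30.5). Eed went from 87.9% (83.8 to 91.2) to 73.0% (67.1 to 78.3), with 9.97% and 23.9% on a tag in exon 7. Hells went from 85.2% (83.1 to 87.1) to 74.1% (70.3 to 77.6). In these 3 genes the tags of GC-2spd (ts) were spread more over other sites.

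The reverse was seen in the remaining 4. Kdm4a went from 62.5% (48.5 to 75.1) to 96.2% (87.0 to 99.5), Hdac4 from 30.9% (20.2 to 43.3) to 54.8% (44.2 to 65.2), Mbd3 from 85.4% (81.5 to 88.7) to 94.3% (92.6 to 95.7) and Hdac7 from 96.9% (96.0 to 97.6) to 99.5% (98.8 to 99.8).

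**Figure D5:**
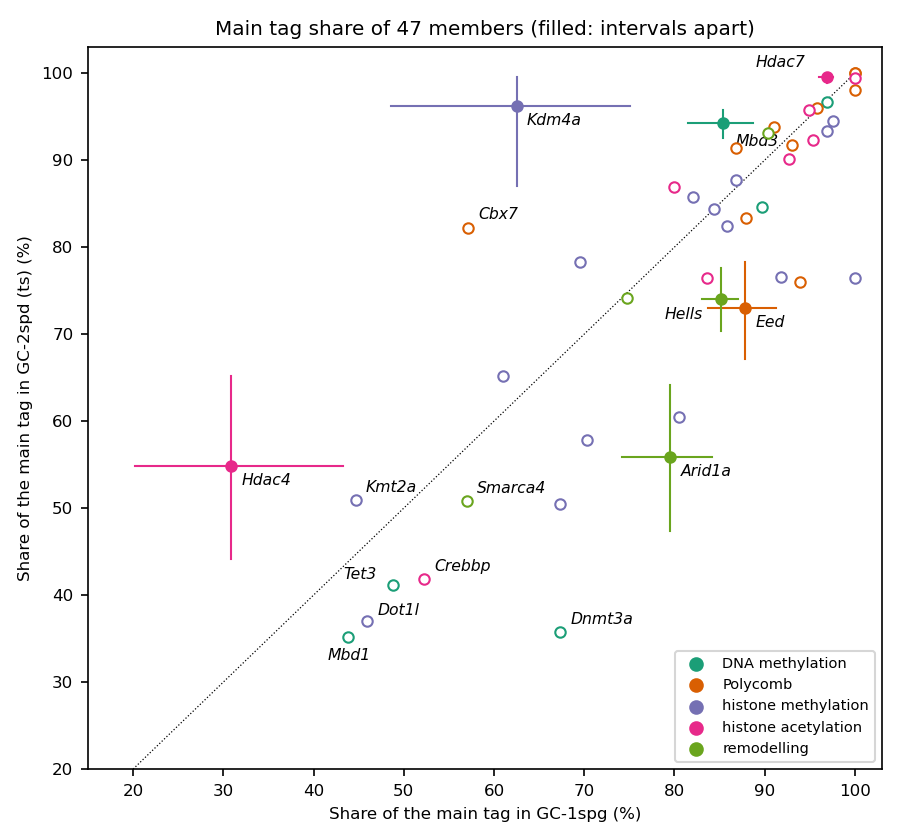
Share of a member's most abundant tag among its own tags, in percent, GC-1spg on the x axis and GC-2spd (ts) on the y axis, for 47 members with at least 20 tags, coloured by family. Filled points with exact 95% counting intervals as bars mark the 7 members whose intervals did not overlap, with Kdm4a and Hdac4 above the dotted line of equality and Arid1a, Eed and Hells below it.

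The pathways around the members were described with 154 other genes of the same complexes and enzyme classes. Of these 147 were listed, 15 were called higher and 5 lower in GC-2spd (ts), or 13.6% of those listed beside 19.5% of all genes, and with TMM scaling the counts were 9 higher and 10 lower. Their median log2 ratio was 0.24. In the DNA methylation group, with 14 listed, Zfp57, which keeps imprints methylated, had 76 and 17 tags (−2.06, −2.91 to −1.29), and Zbtb33, which binds methylated DNA, had 42 and 79 (1.01, 0.46 to 1.59). Tdg, a glycosylase of demethylation, had no listed tag.

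Polycomb companions had 18 of 23 ratios above 0, a count that was not made over all genes. Their median was 0.54, or 0.37 under TMM scaling, beside 0.16 for all genes listed in both libraries. Of the 23, 2 were called higher and 1 lower, or 13.0%, beside 19.5% of all genes. Rbbp7, a histone-binding subunit of both PRC2 and NuRD, had 474 and 1673 tags, or 93.5 and 353.9 TPM, a ratio of 1.92 (1.77 to 2.07). Scmh1, a PRC1-associated protein, had 48 and 95 tags (1.09, 0.57 to 1.62).

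Among 40 histone methylation companions 4 were called higher and 2 lower, or 15%, beside 19.5% of all genes. Setd1b, a lysine 4 methyltransferase, had 32 and 125 tags (2.07, 1.50 to 2.68), and Kdm1b, which demethylates lysine 4, had 38 and 117 (1.72, 1.18 to 2.29). The lysine 9 demethylases went opposite ways: Kdm4c had 45 and 125 tags (1.58, 1.07 to 2.10) and Kdm4b had 109 and 38 (−1.42, −1.99 to −0.87). Kmt5c, which methylates histone H4 lysine 20, had 53 and 13 (−1.93, −2.93 to −1.03).

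In the acetylation group 1 of 27 was called higher and 1 lower, or 7.41%, beside 19.5% of all genes. Sin3b, a corepressor scaffold, had 500 and 980 tags (1.07, 0.92 to 1.23). Hdac11, a class IV deacetylase, had 23 and 0, at least 4.52-fold lower against the one-sided 95% limit for unlisted copies. Hdac11 falls outside the naming rule and was chosen after its values were seen. Remodelling companions had 7 calls of 38, or 18.4%, close to the 19.5% of all genes. All 7 were higher, but under TMM scaling 5 were higher and 4 lower. Among the 7 were the NuRD subunit Gatad2a with 82 and 391 tags (2.36, 2.01 to 2.72) and the ATPase Smarca5 with 19 and 53 (1.58, 0.80 to 2.42). The SWI/SNF subunit Arid1b had 75 and 192 (1.46, 1.07 to 1.86).

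Chromatin factors known from germ cells were scarce in both lines. Of 10 such genes 5 were listed and 0 were called by the Audic-Claverie rule. Prdm9, which marks meiotic recombination sites, had 16 and 16 tags, and Brdt, a testis bromodomain protein, had 10 and 13. Phf7, a histone reader of male germ cells, had 18 and 21 tags, Morc1, which silences transposons, had 4 and 2, and Scml2, a germ line Polycomb protein, had 0 and 8. Dnmt3l, Dnmt3c, Morc2b, Kdm4d and Zcwpw1 had no listed tag in either library.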

How the data were processed

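Total RNA of each line was profiled by DGE, which reads 21 bases from CATG sites of poly(A) transcripts. The authors removed adaptor, low-quality and single-copy tags and deposited 2 tables of tag sequences with their counts and their TPM (copies per 1000000 clean tags). TPM is not divided by length. The authors matched tags to UniGene, which was not used here.

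Tags were matched anew to GENCODE release M21 transcripts (GRCm38), at any CATG site on either strand, with at most 1 mismatch, and the best match was kept. Tags of more than 1 gene, and antisense tags, were left out: 28.1% and 26.2% of copies were ambiguous, 7.61% and 7.08% antisense, and 9.59% and 8.77% unmatched. In GC-1spg 54.7% of copies, and in GC-2spd (ts) 57.9%, counted toward 14450 genes.

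Libraries were compared by a two-sided Audic-Claverie test with Benjamini-Hochberg adjustment over all genes, at FDR 0.001 and 2-fold, with genes at 0 set to 0.01 TPM. The test compares 2 libraries, not the cell types. With 1 library per line edgeR's quasi-likelihood test could not be fitted. Ratios and shares have exact (Clopper-Pearson) 95% intervals. The test was checked on simulated counts with counting noise only. That is the noise the test assumes, so the check says nothing about the spread between cultures. Alternatives changed the matching, scaling, filter and test, and 2 were added after seeing the data. The members and lists were chosen with earlier results of these data known. Named were all 52 members, in each group the called companions with at least 50 tags (at most 3 per direction), every listed germ line factor, and main tags of called members with at least 20 tags (at most 12, none on chromosome 18). One companion gene that the rule names is not reported here. The tags of Jarid2 and Smarcb1 were added after their values were seen.

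Python 3.11.15, scipy 1.17.1, R 4.3.3, edgeR 4.0.16 and DESeq2 1.42.0 were used.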

Additional observations from a re-analysis of the deposited data

Results flagged for a closer look

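Signal outside the counts described above was looked at for every member. Tags shared with another gene outnumbered a member's own tags over both libraries for 5 genes: Setdb1, with 283 and 440 shared copies (GC-1spg first), Hdac1 with 472 and 705, Kdm2b with 28 and 48, Kat5 with 43 and 43, and Bmi1 with 59 and 100 beside 53 and 102 of its own. Antisense tags of all members came to 1199 and 1082 copies. Smarcb1 was the one member with more antisense than sense tags, 72 and 64, and its tag that runs into the poly(A) tail had 215 and 221 copies. Among single members, Suz12 had 29 and 102 antisense copies and Hdac7 had 171 and 39, each in the opposite order to the other. Their source was not tested.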

How the results depend on the processing

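No paired analysis was possible because each line had 1 library. Without replicates the only guard against the spread between cultures was an assumed biological coefficient of variation in an edgeR exact test: members called higher numbered 3 at 0.1, 1 at 0.2 and 0 at 0.4, members called lower 2 at 0.2 and 0 at 0.4, and companions called 4 at 0.2 and 0 at 0.4, where 108 of all genes were higher and 136 lower. Members called higher numbered 3 under TMM scaling, 3 under DESeq2 size factors and 3 under scaling to unambiguous sense tags, and members called lower numbered 2 with the last CATG site alone, where Mbd1 and Crebbp were called higher in addition. Of the 10 calls, 9 were kept with exact matches (Cbx7 was lost), 9 with poly(A) tails added (Dot1l was lost) and 7 with antisense tags added (Bmi1, Dot1l and Hells were lost). With the last site before the 3′ end the log2 ratio turned to 0.69 for Cbx8, −0.012 for Kmt2a, 0.061 for Kmt2d, −0.024 for Suv39h2 and 1.06 for Crebbp. Adding antisense tags turned Tet2 to −0.29, Ezh1 to 0.017, Crebbp to 0.090, Smarca4 to 0.013 and Smarcb1 to −0.012. Preferring sense matches turned Ehmt2 to 0.0030 and Hdac1 to −0.26. TMM scaling turned Tet2 to −0.14, Kmt2a to −0.020, Kdm3a to −0.15, Kdm4a to −0.15, Hdac3 to −0.019 and Smarca2 to −0.041, DESeq2 size factors turned the same 6 to −0.13, −0.0094, −0.14, −0.14, −0.0090 and −0.031, and scaling to unambiguous tags turned Tet2 to −0.047, Kdm3a to −0.058 and Kdm4a to −0.061. Only Cbx8 among these was a called member, and the cause was not tested. Exact binomial testing, a minimum of 10 tags and 0.5 added tags kept all 10 calls, as did the longest transcript alone, which added Hdac7 as lower. Members with under 25 unambiguous tags were Tet1, Dnmt3b, Kdm2b, Kat5, Hdac1 and Smarcb1. Of these, Tet1 and Dnmt3b had no shared copies, and whether depth or low expression set their counts was not tested. The other 4 had further copies among shared or poly(A) tags.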
